A study of Mus musculus with 16 samples.

Results

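ERK is the last kinase of the RAF, MEK and ERK cascade and switches on immediate-early genes such as Egr1 and Fos, and feedback genes such as Spry4 and Dusp6. Mouse pluripotent cells also respond to their surroundings through other programs: p53 raises growth-arrest genes such as Cdkn1a, ATF4 raises amino-acid transport and synthesis genes when amino acids are short or the endoplasmic reticulum is stressed, and SRF and YAP read the actin cytoskeleton and cell contact. A treatment with a drug brings a step of handling with it, so transcripts that follow the time since a compound was added need to be told from those that follow the kinase.

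The comparison described here sets the 8 libraries taken 2 h after the latest compound against the other 8 libraries, out of 16 libraries in all. The first set held the groups 2h and rev, and the second held 0h and 4h. All 16 libraries were total RNA of CRAFR26 cells, a mouse line in the state that the labels abbreviate as RSC, carrying a c-RAF kinase construct that 4-hydroxytamoxifen (4OHT) switches on. All cells had spent 48 h in 250 nM PD17 (PD173074, an FGF receptor inhibitor), which replaced the MEK inhibitor PD03 (PD0325901) of their routine N2B27 medium with IWP2 and LIF. Group 0h had received nothing further, so its latest change was that switch 48 h earlier. Groups 2h and 4h had 2 h and 4 h of 250 nM 4OHT, so that the latest addition lay 2 h and 4 h back. Group rev had 4 h of 4OHT and 2 h of a MEK inhibitor, whose dose the labels do not state, so that its latest addition lay 2 h back with ERK signalling again blocked. The labels do not say whether 4OHT and PD17 stayed in the medium with that inhibitor or whether the medium was changed. Each group held 2 libraries of clone 4 and 2 of clone 8. Nothing in the labels says whether the 2 libraries of a clone came from separate cultures, so p-values measure the spread between these libraries, which may be technical. The main model let the clones differ only by a constant shift, so that spread also holds differences between the clones in their response.

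The layout crosses 2 contrasts, and every change given below without a unit is on the log2 scale. The recent-addition contrast is the mean of 2h and rev minus the mean of 0h and 4h. The ERK contrast is the mean of 2h and 4h, where the kinase was induced, minus the mean of 0h and rev, where it was not or was blocked. Each side of the recent-addition contrast is made of whole groups, and no group with a mock addition or with 6 h of 4OHT alone was analysed here. Time since an addition, the handling at that addition, effects of 4OHT and of the MEK inhibitor themselves, an early peak and later fall of induced genes, and the order of collection or library preparation therefore cannot be told apart. The labels give no batch or date.

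Library totals ran from 4313599 to 10444126 counts, and 8 very abundant features, among them nuclear and mitochondrial ribosomal RNAs, took 46.7 to 78.9% of them. The 2h and rev libraries were deeper, with 8.78 ± 1.46 M counts (SD, n = 8) against 6.75 ± 1.65 M (SD, n = 8), a difference with a two-sided exact permutation p of 0.0241 within clones and 0.169 after Benjamini-Hochberg adjustment over 7 technical measures. The rev library number 1 of clone 8 had the smallest scaling factor, 0.537, and the fewest counts outside the 8 features, 1.3 M. Pluripotency markers summed to 1210 to 2020 CPM (counts scaled by TMM to library size) in every library, while 8 fibroblast markers summed to 0.919 to 4.54 CPM. The part of depth in the results was not tested beyond the refits with depth as a term and with thinned counts given in the closing section.

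Of 12742 genes tested, 2261 were called in the recent-addition contrast, 17.7%, at an adjusted p under 0.05 in edgeR's quasi-likelihood test. Of these, 1240 were higher in 2h and rev (9.73%) and 1021 were lower (8.01%). With scaling by library totals in place of TMM, 471 genes were called, 207 higher and 264 lower. Those totals include the 8 abundant features. With RLE size factors in place of TMM, 2248 of the 2261 calls stayed. With TMM after leaving out the 8 features and ribosomal RNA, 2233 stayed. The ERK contrast called 1055 genes, 8.28%, with 617 higher and 438 lower, and 474 under scaling by library totals, 429 higher and 45 lower. Between the pair of groups on the same side, rev and 2h, which differ in ERK state, 227 genes were called, 1.78%. Between 4h and 0h, the other pair with opposite ERK states, 1645 genes were called, 12.9%. The count for rev and 2h fell as low as 80 without rev clone 4 number 1, and lay at 119 without 2h clone 4 number 2 or without rev clone 4 number 2, at 122 without 2h clone 8 number 2, at 136 without 2h clone 4 number 1 and at 141 without rev clone 8 number 2. For 4h and 0h it was 964 without 0h clone 4 number 1 and 995 without 4h clone 4 number 1.

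Genes were taken to follow the recent addition rather than ERK where they were called in the first contrast, not called in the ERK contrast, and changed more in the first than in the ERK contrast or in the remaining one (4h and rev against 0h and 2h). This left 1903 genes, 14.9% of those tested and 84.2% of those called, with 1048 higher (8.22% of tested genes) and 855 lower (6.71%) in 2h and rev. A further 280 called genes were also called in the ERK contrast, among them Egr1 and Fos. For 254 of the 1903, 1.99% of tested genes, the 4 libraries of 2h and rev lay beyond the 4 libraries of 0h and 4h in each clone, 137 above and 117 below. The change had the same sign in both clones for 1837 of the 1903, which the choice of genes by the change over both clones favours. For 482 of the 1903 the size differed between the clones, as it did for 18.4% of all tested genes.

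The contrast is the mean of 2h minus 0h and rev minus 4h, which share no library. The first called 2162 genes (17%) and the second 1224 (9.61%). Both called 370 genes, of which 219 changed in the same direction, 131 upward and 88 downward, and 151 in opposite directions. The same contrast is also the mean of 2h minus 4h (1547 genes called, 12.1%) and rev minus 0h (1332, 10.5%), where both called 284 genes, 238 in the same direction and 46 in opposite ones, with a Pearson correlation of 0.188 over all genes. For 2h minus 0h and rev minus 4h, the changes across all 12742 genes had a Pearson correlation of 0.0145 and a Spearman correlation of 0.15, given as a description, since genes are not independent replicates and libraries of a clone share their source. The 219 became 136 without 4h clone 4 number 2, 126 without rev clone 4 number 1 and 108 without rev clone 4 number 2.

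**Figure D1:**
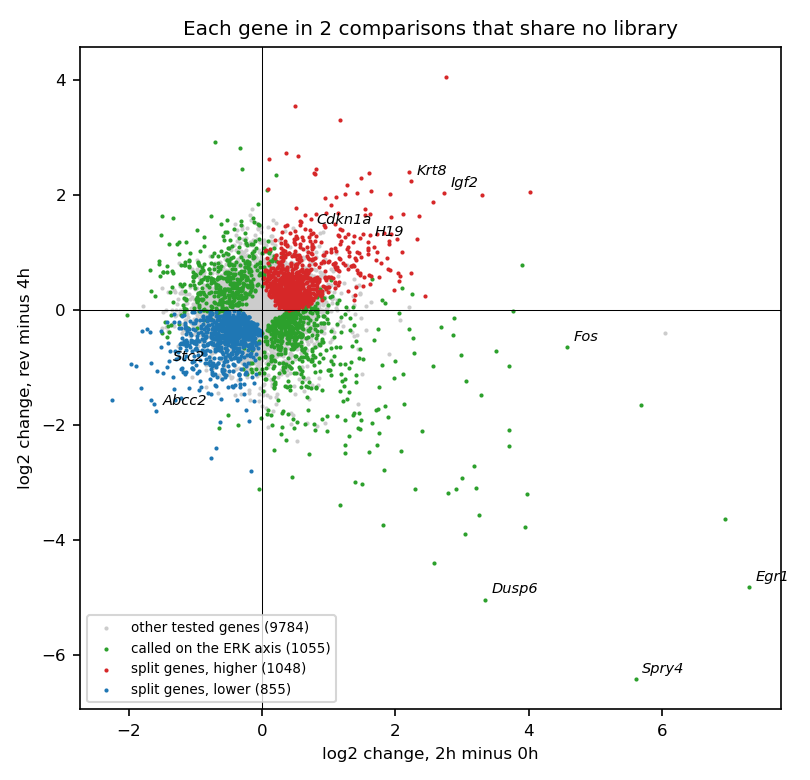
Each point is 1 of 12742 tested genes, with its log2 change from 0h to 2h on the horizontal axis and from 4h to rev on the vertical axis; red and blue mark the 1048 and 855 genes that followed the recent addition and green the 1055 genes called in the ERK contrast. Igf2 and Krt8 lie above 2 on both axes, while Spry4 and Dusp6 rise along the horizontal axis and fall along the vertical one.

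The ERK comparators set the scale. Egr1, an immediate-early transcription factor, stood at 0.999 to 3.94 CPM in the 4 libraries of 0h, at 169 to 572 in 2h, at 29.8 to 290 in 4h and at 2.69 to 6.55 in rev. Its ERK change was 6.06 on the log2 scale, and its recent-addition change was 1.24 ± 0.29 (SE, adjusted p = 0.00682 by edgeR), which a model with only the pair of sides and clone did not call (edgeR adjusted p = 0.30). For Spry4, which restrains RAF signalling, the ERK change was 6.0 and the recent-addition change -0.40 (edgeR adjusted p = 0.406). Of the 20 tested ERK feedback and immediate-early genes, 17 rose in the ERK contrast and none fell (4.84 and 3.44% of all genes), and 6 rose and 2 fell in the recent-addition contrast (9.73 and 8.01%). Only 1 of these 8 passed the rule for following the recent addition.

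Among well-counted genes whose sides did not overlap in either clone, imprinted growth genes had 3 of the 4 largest rises at 2h and rev. Igf2, a secreted fetal growth factor, led with a log2 change of 2.38 ± 0.149 (SE, adjusted p = 1.16e-08 by edgeR). In clone 4 it stood at 4.20 and 6.52 CPM in 0h and 9.33 and 6.60 in 4h, against 39.8 and 44.8 in 2h and 43.9 and 36.5 in rev. In clone 8 all levels were lower, 1.14 and 0.719 CPM in 0h and 1.81 and 1.07 in 4h, against 4.10 and 4.14 in 2h and 3.63 and 3.58 in rev. The sides did not overlap in either clone, and the change was 2.73 from 0h to 2h and 2.03 from 4h to rev. H19, the noncoding RNA next to Igf2, ran from 0.862 to 49.2 CPM in 0h and 4h with a median of 19.8, and from 4.33 to 116 in 2h and rev with a median of 47.6. Its log2 change was 1.39 ± 0.115 (SE, adjusted p = 7.99e-07 by edgeR), with no overlap of the sides within a clone.

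Cdkn1c, a CDK inhibitor of the same imprinted region of distal chromosome 7, ranged from 1.51 to 3.73 CPM in 0h and 4h, median 2.08, and from 3.20 to 12.8 in 2h and rev, median 7.59. Its change was 1.65 ± 0.201 (SE, adjusted p = 2.97e-05 by edgeR). In GRCm38 coordinates H19 lies at chr7:142575529-142578143, Igf2 at chr7:142650766-142666816 and Cdkn1c at chr7:143458339-143461050, all on the minus strand. Reads are shared where genes overlap: 64.5% of Igf2's exonic bases lie in the exons of a same-strand predicted gene or of the antisense RNA Igf2os, and 30.6% of Cdkn1c's under an opposite predicted gene. The strand setting of the counting is not given, so the counts of these genes are uncertain to that extent. A list of 36 imprinted genes, drawn up after these values were seen, had 28 tested, of which 6 rose and 3 fell (9.73 and 8.01% of all genes). The maternally expressed RNAs Meg3 (-0.83), Rian (-0.60) and Mirg (-0.88) of another imprinted region fell on the log2 scale. Peg10, a retrotransposon-derived placental gene, rose by 1.10 but was also called in the ERK contrast, at 0.55. The list's median was 0.05, against -0.000473 for all tested genes, and under scaling by library totals it was -0.000842.

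**Figure D2:**
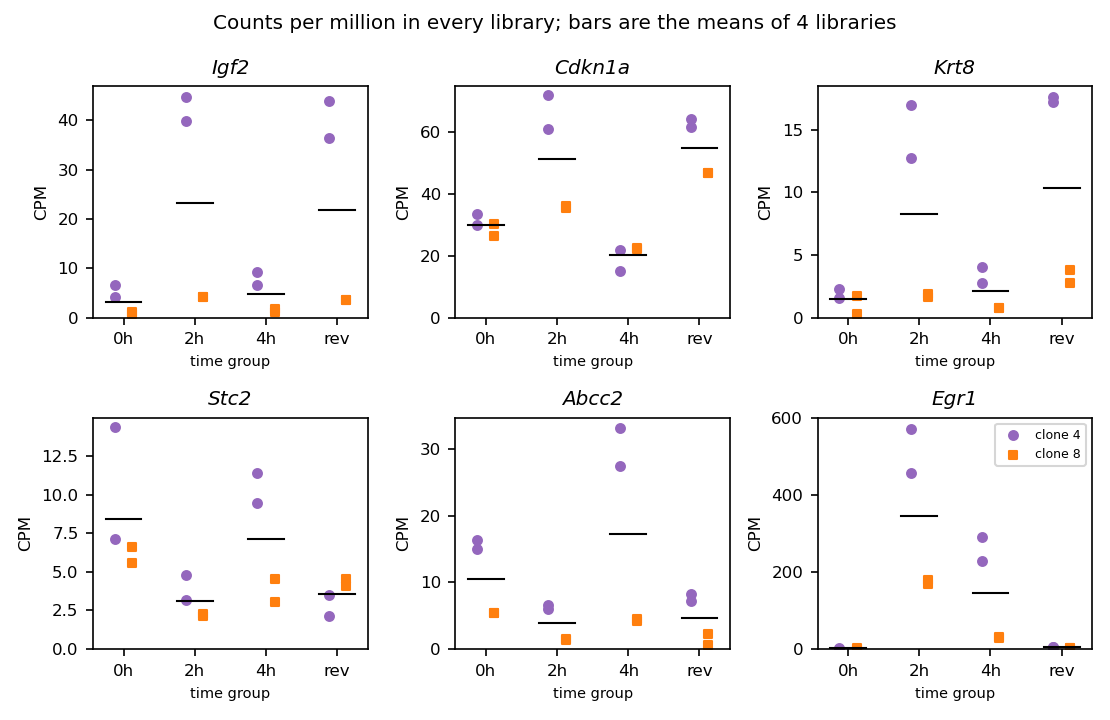
Each point is the CPM of 1 library in the group named on the horizontal axis, with circles for clone 4 and squares for clone 8, and bars for the mean of the 4 libraries. Igf2, Cdkn1a and Krt8 are high in 2h and rev, Stc2 and Abcc2 are low there, and Egr1 is high in 2h and 4h.

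Simple keratins, the intermediate filament proteins of single-layered epithelia, rose as well, at low levels. Krt8 stood at 0.311 to 4.00 CPM in 0h and 4h, median 1.66, and at 1.61 to 17.6 in 2h and rev, median 8.27. That is a log2 change of 2.23 ± 0.234 (SE, adjusted p = 6.87e-06 by edgeR), with an overlap of the sides within clone 8, where 0h number 2 had 1.72 CPM and 2h number 2 had 1.61. Its partner Krt18 rose by 1.63, from a median of 1.66 to 7.89 CPM, and Krt7 and Krt19 rose by 1.97 and 1.89 from medians below 0.4 CPM. In all, 7 of 20 tested members of the keratin and epithelial membrane list rose (9.73% of all genes) and none fell, and 4 of the 7 followed the recent addition by the rule. Anxa2, Lad1 and Cavin1 were the other 3, with edgeR adjusted p of 0.033 to 0.049. The count of 7 became 4 without any 1 of 0h clone 4 number 1, 0h clone 4 number 2, 2h clone 8 number 2 or rev clone 4 number 2, and also with the replicate number as a block. Of 16 refits that each left out 1 library, 7 ended the call of Anxa2, 8 that of Lad1 and 12 that of Cavin1. In clone 8 alone 4 members rose and 2 fell. The list's median change was 0.18, against -0.000473 for all genes. In the ERK contrast 4 members rose and 2 fell (4.84 and 3.44% of all genes), with a median of 0.16. In the remaining contrast (4h and rev against 0h and 2h) 5 rose and none fell, with a median of 0.37. That contrast called 5.06% of all genes.

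Some markers of other cell types moved on the same contrast, in which 9.73% of all tested genes rose and 8.01% fell. Extraembryonic endoderm markers summed to 16.7 to 56 CPM in 2h and rev (median 40.4) and to 19 to 32.3 in 0h and 4h (median 28.4). Of the 4 tested among 8, Dab2 (1.72), Pdgfra (0.80) and Lama1 (0.43) rose, while Gata4 (-0.04) was not called, and Gata6, Sox7, Sox17 and Foxa2 were too low to test. Trophoblast markers summed to 33.7 to 86.7 CPM (median 58.9) against 42.1 to 75.7 (median 57.4), with Krt7 and Hand1 (1.33) higher among 5 tested, Cdx2 and Elf5 too low to test and Tpbpa at 0 in every library. Markers of the 2-cell-like state summed to 0.553 to 30.9 CPM (median 13) against 1.27 to 14.4 (median 4.65), and 4 of 5 tested rose, Zscan4c, Zscan4d and Zscan4f by 1.06 to 1.30 and Usp17lc by 1.21. Mesoderm and primed-state markers summed to 30.4 to 53.6 CPM (median 42.4) against 33.2 to 102 (median 46.3), with Otx2 lower (-0.69) and the other 4 tested not called. Neural markers summed to 71.7 to 129 CPM (median 107) against 92.8 to 114 (median 96.7), with 0 of 6 tested called. The part of these cells in the results was not tested, and in bulk RNA more cells of a type cannot be told from more RNA per cell. Basement membrane genes were gathered after their values were seen: Col4a1 and Col4a2, the chains of collagen IV, rose by 0.76 and 0.99 and Hspg2 (perlecan) by 0.48, and Nid1 fell by 0.21, with 5 of 13 tested higher and 1 lower. Col4a2 ran from 7.2 to 26.9 CPM in 0h and 4h and from 15.6 to 44.8 in 2h and rev, without overlap inside a clone. Lama1 lost its call without any 1 of the 4 clone 8 libraries of 0h and 2h or without rev clone 4 number 2.

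**Figure D3:**
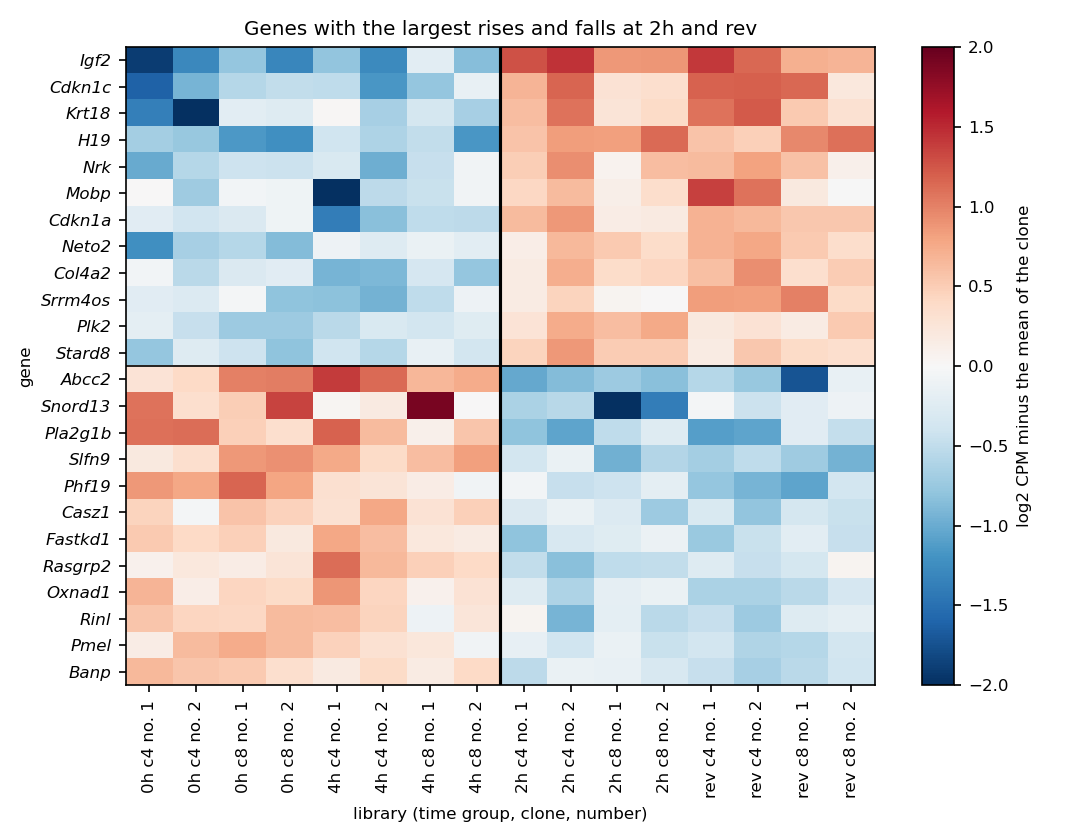
Colour gives log2 CPM minus the mean of the clone for the 12 largest rises and 12 largest falls among well-counted genes whose sides do not overlap in either clone, with columns for the 16 libraries and a line between 0h with 4h and 2h with rev. The choice of genes fixes the separation; sizes differ between clones, as for Mobp (1.81 in clone 4 and 0.33 in clone 8).

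Of 21 tested p53 targets, 11 rose, none fell and 10 were not called, 52.4% called against 17.7% of all genes, and 10 of the 11 followed the recent addition by the rule. The median change of the 21 was 0.36, with 0.49 in clone 4 and 0.31 in clone 8. It was 0.42 from 0h to 2h, where 12 rose and 1 fell (9.49 and 7.48% of all genes), and 0.32 from 4h to rev, where 9 rose and none fell (4.5 and 5.1% of all genes). Cdkn1a, the CDK inhibitor p21, stood at 30 and 33.6 CPM in 0h and 14.9 and 21.8 in 4h of clone 4, against 60.9 and 72.0 in 2h and 61.6 and 64.2 in rev. In clone 8 it stood at 26.2 and 30.3 in 0h and 22.2 and 22.5 in 4h, against 35.6 and 36.2 in 2h and 46.6 and 46.8 in rev. The sides did not overlap, and the log2 change was 1.06 ± 0.12 (SE, adjusted p = 1.52e-05 by edgeR).

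Mdm2, the ubiquitin ligase that degrades p53, rose from 71.6 to 103 CPM in 0h and 4h to 120 to 174 in 2h and rev. Its change of 0.65 ± 0.0593 (SE, adjusted p = 2.12e-06 by edgeR) was alike in the clones, 0.65 and 0.67. Plk2, a stress-induced kinase, rose by 0.92, Btg2, an antiproliferative gene, by 0.63, the cyclin Ccng1 by 0.60, the receptor Eda2r by 0.60 and the AKT inhibitor Phlda3 by 0.56. The BH3-only gene Pmaip1 rose by 0.99 but was also called in the ERK contrast, at 0.86, and its change from 4h to rev was 0.13 (edgeR adjusted p = 0.757). With scaling by library totals 7 of the 21 rose and none fell. The size of the change differed between the clones for 8 of the 21, against 18.4% of all tested genes.

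**Figure D4:**
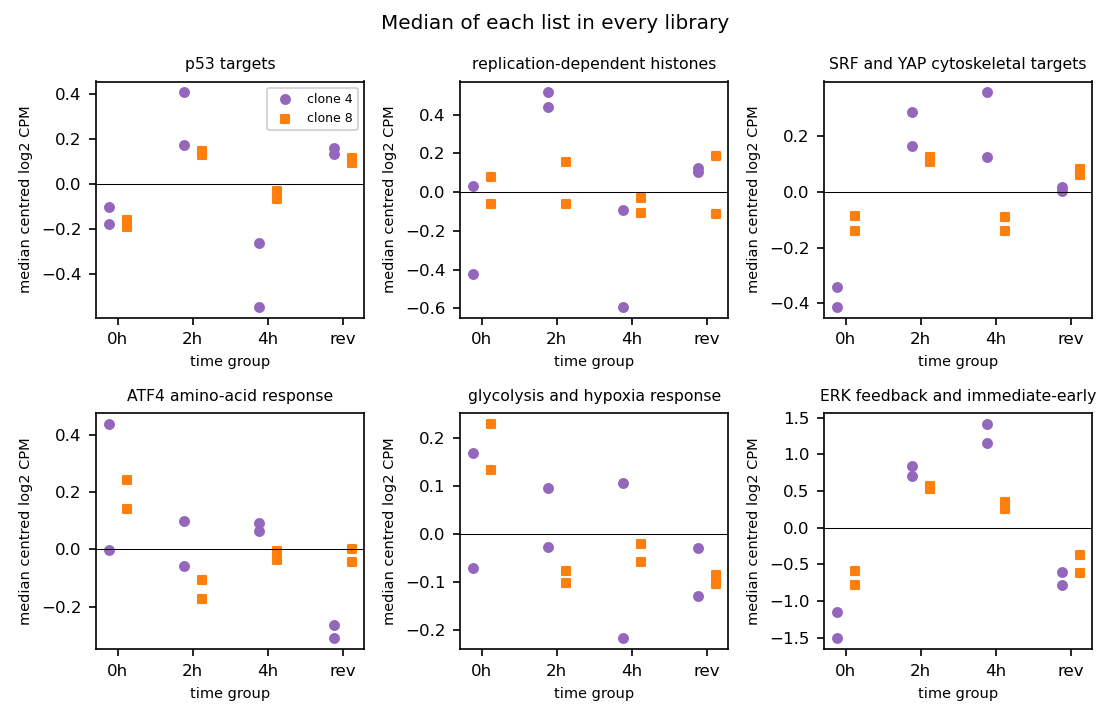
Each point is the median over a list's tested members of log2 CPM minus the clone mean in 1 library, with circles for clone 4 and squares for clone 8. The p53 targets lie above 0 in every 2h and rev library and below 0 in every 0h and 4h library, while the ERK list lies above 0 in 2h and 4h.

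Genes of the ATF4 amino-acid response were mostly lower or not called. Of 36 tested, 18 fell, 1 rose (8.01 and 9.73% of all genes) and 17 were not called, with a median of -0.22. From 0h to 2h 12 fell and 1 rose (7.48 and 9.49% of all genes), and from 4h to rev 7 fell and 2 rose (5.1 and 4.5%). Of the 18, 13 followed the recent addition by the rule. None of these had sides without overlap in both clones, which 1.99% of all tested genes had while following by the rule. The size of the change differed between the clones for 13 of the 36, against 18.4% of all tested genes. Elsewhere it differed for 14 of 31 glycolysis and hypoxia genes, 20 of 51 histone genes and 0 of 81 cytosolic ribosomal protein genes. Stc2, a secreted glycoprotein induced by stress, stood at 7.12 and 14.4 CPM in 0h and 9.47 and 11.4 in 4h of clone 4, against 3.18 and 4.8 in 2h and 2.13 and 3.50 in rev. In clone 8 it stood at 5.6 and 6.64 in 0h and 3.06 and 4.52 in 4h, against 2.17 and 2.28 in 2h and 4.09 and 4.54 in rev, so that 4h and rev overlapped there. Its log2 change was -1.21 ± 0.226 (SE, adjusted p = 0.00142 by edgeR).

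The transcription cofactor Nupr1 fell by 1.03, Chac1, which degrades glutathione, by 1.05, the glycine transporter Slc6a9 by 0.99, the pseudokinase Trib3 by 0.95 and the neutral amino-acid transporter Slc1a4 by 0.79. Chac1 was also called in the ERK contrast and its change from 4h to rev was not called (-0.08, edgeR adjusted p = 0.928). Ddit3 (CHOP) fell by 0.71, and Atf4 itself by 0.30. Enzymes of proline, folate and serine metabolism fell less: Aldh18a1 by 0.52, Mthfd2 by 0.33 and Psat1 by 0.24. Atf3 was the member that rose, by 1.09 (edgeR adjusted p = 0.0199), from rev minus 4h alone (2.10, against 0.09 for 2h minus 0h), and it lost the call without 4h clone 8 number 1 or rev clone 8 number 2. With scaling by library totals 8 of the 36 fell and 1 rose.

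ATF4 with a C/EBP partner binds a composite element, searched here as TGATGNAAT on both strands from 250 bases before to 50 after each RefSeq start in GRCm38.p6. A promoter was matched by symbol for 9494 of the tested genes, and 50 of them, 0.527%, held the letters. In the ATF4 list 4 of 30 did, 13.3%, of which 1 fell. Among genes that followed the recent addition 4 of 755 higher ones (0.53%) and 5 of 653 lower ones (0.766%) held them, next to 0.527% of all tested genes. Of the 4 list members, 1 fell and 3 were not called, and 3 windows are printed 5′ to 3′ on the strand of the gene, with the element in capitals. The search fixed all letters of the element but 1, so their likeness is not a result. The windows are those of Nupr1 (chr7:126625543-126625611, minus strand), the tRNA synthetase gene Gars (chr6:55037940-55038008, plus strand) and Pycr1 of proline synthesis (chr11:120643813-120643881, minus strand). Nupr1 and Gars hold the reverse complement of the searched letters, and Pycr1 holds them as searched.
Nupr1: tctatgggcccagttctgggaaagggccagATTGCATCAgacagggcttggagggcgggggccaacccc
Gars: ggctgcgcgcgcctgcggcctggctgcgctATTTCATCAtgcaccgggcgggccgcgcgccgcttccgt
Pycr1: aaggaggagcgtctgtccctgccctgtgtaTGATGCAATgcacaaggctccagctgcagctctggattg
The window of Aars, another tRNA synthetase gene, is not printed, since its end was not found at the start of an annotated transcript. Nupr1 fell by 1.03, while Aars (-0.15), Gars (-0.11) and Pycr1 (0.05) passed no threshold (adjusted p of 0.0768, 0.266 and 0.841 by edgeR). A match is a run of letters and not a shown binding site.

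Of 31 tested glycolysis and hypoxia genes, 8 fell and 3 rose (8.01 and 9.73% of all genes), with a median of -0.12 that was -0.03 in clone 4 and -0.14 in clone 8. Under scaling by library totals 2 fell and 1 rose, and with the replicate number as a block 6 fell and 2 rose. The lactate exporter Slc16a3 fell by 0.95 and was also called in the ERK contrast, at -0.47. The glycolytic enzymes Pfkp (-0.53), Tpi1 (-0.39), Pkm (-0.28) and Eno1 (-0.24) and the glucose transporter Slc2a1 (-0.29) fell, while the adenylate kinase Ak4 (0.66), the demethylase Kdm3a (0.35) and Ndrg1 (0.49) rose. Ndrg1 lost its call without any 1 of 0h clone 4 number 1 or 2, 2h number 2 of either clone, 4h clone 4 number 1 or 2 or rev clone 4 number 1 or 2. Among the falls, Hk2 lost its call in 6 and Pfkl in 10 of 16 refits that each left out 1 library.

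Of 20 tested SRF and YAP targets, 9 rose (9.73% of all genes), none fell and 11 were not called, with a median of 0.25 that was 0.48 from 0h to 2h and 0.04 from 4h to rev. Amotl2, a YAP-binding scaffold, ran from 29.9 to 63.8 CPM in 0h and 4h and from 49.4 to 125 in 2h and rev, did not overlap within a clone and changed by 0.86 ± 0.103 (SE, adjusted p = 2.32e-05 by edgeR). The GTPase Rhob rose by 1.14, with 2.15 in clone 4 and 0.45 in clone 8, a difference with an edgeR adjusted p of 3.58e-07. The kinase Lats2 rose by 1.03 and the matricellular gene Ccn2 by 0.74. Thbs1 (2.34) and Ccn1 (1.38) were also called in the ERK contrast, at 1.55 and 1.5, and their changes from 4h to rev were 0.79 and -0.13, neither called. From 4h to rev 2 of the 20 rose and 1 fell (4.5 and 5.1% of all genes), and from 0h to 2h 9 rose and none fell (9.49 and 7.48%). In the ERK contrast 5 of the 20 rose and none fell (4.84 and 3.44%), with a median of 0.25. Of the 9 that rose in the recent-addition contrast, 6 followed it by the rule. In clone 4 the list's median level, centred on the clone, was 0.356 and 0.125 in 4h and 0.00311 and 0.0186 in rev. In clone 8 that level was -0.0921 and -0.14 in 4h and 0.06 and 0.0825 in rev.

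Replication-dependent histone genes, whose messages lack a poly(A) tail and peak in S phase, rose in 18 of 51 tested of 67 (9.73% of all genes) and fell in none. The median was 0.29, with 0.59 in clone 4 and 0.11 in clone 8. Hist1h4d ran from 96.6 to 149 CPM in 0h and 4h and from 130 to 197 in 2h and rev, an overlap, and changed by 0.51 ± 0.097 (SE, adjusted p = 0.00155 by edgeR). Near-identical copies can share or lose reads, so single histone genes are uncertain. The 18 became 1 under scaling by library totals, 5 in clone 8 alone and 40 in clone 4 alone. In clone 8 alone 1 histone gene fell. Clone 8 alone called 14.8% of all its tested genes in either direction, and clone 4 alone 29.8%. Slbp, which binds the histone stem-loop, rose by 0.49. Of 26 G1/S genes 4 rose and 3 fell, 26.9% called, and of 26 G2/M genes 3 rose and 1 fell, 15.4%, next to 17.7% of all genes. Cyclin Ccnd3 fell by 0.42.

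Sterol genes gave 9 rises and 2 falls among 25 (9.73 and 8.01% of all genes), with a median of 0.06. Under scaling by library totals 1 rose and none fell, and the median was -0.01. Hsd17b7, an enzyme of cholesterol synthesis, stood at 13.7 to 19.1 CPM in 0h and 4h and 19.7 to 36.2 in 2h and rev, with no overlap and a change of 0.65 ± 0.0837 (SE, adjusted p = 5.28e-05 by edgeR). Insig1, which holds back sterol synthesis, rose by 0.51. The glutathione synthesis genes Gclc (0.62) and Gclm (0.48) and thioredoxin reductase Txnrd1 (0.56) were the 3 of 16 NRF2 targets that rose, and none fell (9.73 and 8.01% of all genes). Gclc and Txnrd1 were also called in the ERK contrast. That list's median was 0.03, and -0.02 under scaling by library totals.

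Naive pluripotency genes rose in 6 of 10 (9.73% of all genes), Nanog (0.56), Tbx3 (0.55), Klf4 (0.55), Klf2 (0.39), Tfcp2l1 (0.38) and Zfp42 (0.38), and Klf5 fell by 0.33. Nanog, Klf4 and Klf2 were also called, downward, in the ERK contrast, and changed by 0.03 to 0.10 from 0h to 2h and by 0.75 to 1.08 from 4h to rev. Tbx3 moved alike, by 0.58 and 0.53. Tfcp2l1 lost its call without any 1 of the clone 8 libraries of 0h, 2h clone 4 number 2, 4h clone 4 number 2 or the clone 4 libraries of rev, and Klf5 without 0h clone 8 number 2, 4h clone 4 number 2 or rev number 2 of either clone. Under scaling by library totals none of the 10 was called, and their median was 0.32 in place of 0.38. Nodal, a TGF-beta ligand, rose by 0.53 and was called downward in the ERK contrast (-0.32).

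**Figure D5:**
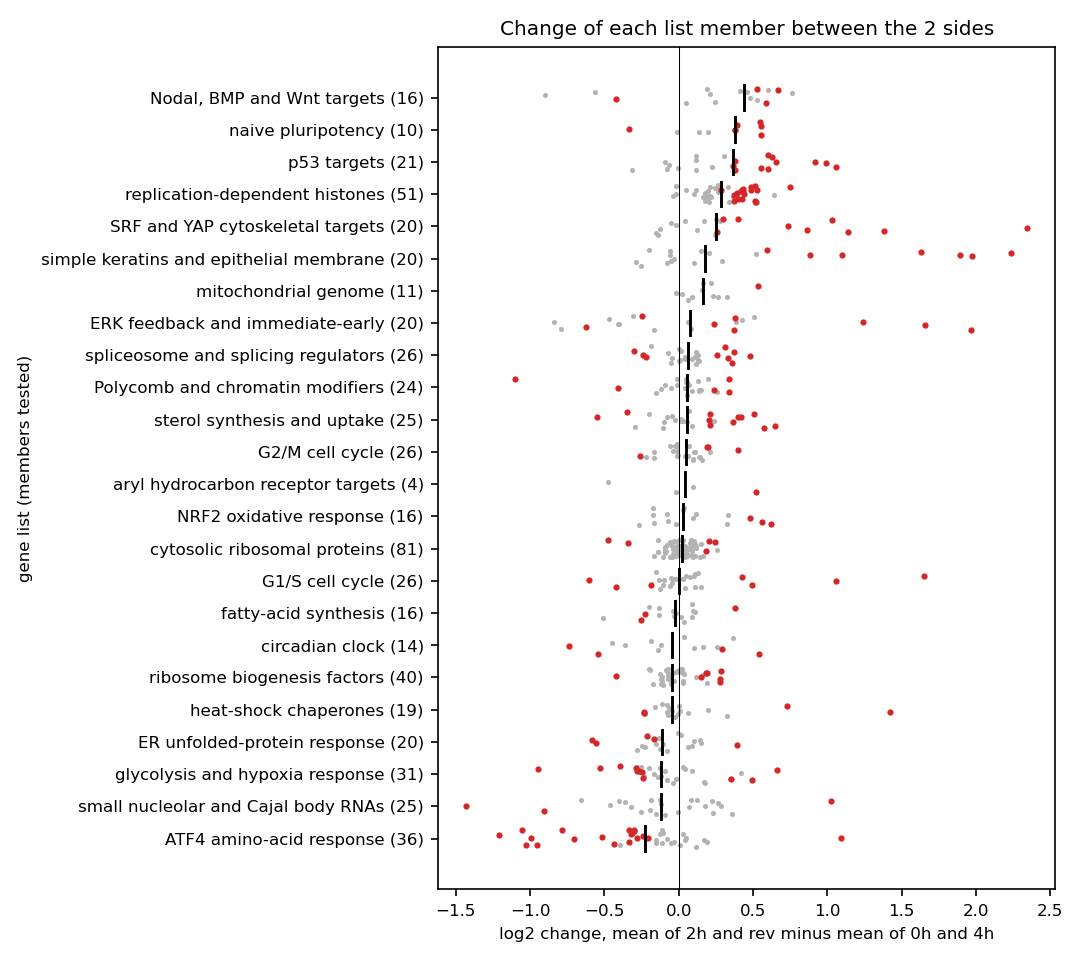
Each point is the recent-addition log2 change of 1 tested list member, red where the adjusted p was under 0.05, and black bars are list medians, with the number tested in brackets. The p53 list has red points only on the right, and the ATF4 list has 18 on the left and 1 on the right.

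The other lists are given by their counts, beside 17.7% of all tested genes called. Ribosome biogenesis factors had 6 of 40 higher and 1 lower in the recent-addition contrast, 17.5% called. In the ERK contrast 11 of them were higher and none lower, against 4.84 and 3.44% of all genes. Cytosolic ribosomal protein genes had 3 of 81 higher and 2 lower, 6.17% called against 17.7% of all genes. Heat-shock chaperones had 2 higher and 2 lower of 19, with Cryab at 1.42 and Hspa4l at 0.73, and the unfolded-protein response had 1 higher and 4 lower of 20, with Xbp1 at -0.56. Of 14 circadian clock genes 2 rose and 2 fell, with Nr1d1, a clock repressor, lower by 0.74 and with no overlap inside a clone. Among 26 splicing genes 6 rose and 3 fell, with the SR proteins Srsf5 (0.48) and Srsf2 (0.37) among the rises. Fatty-acid synthesis genes had 1 higher and 2 lower of 16, aryl hydrocarbon receptor targets 1 higher of 4, small nucleolar RNAs 1 higher and 2 lower of 25 and mitochondrial genome transcripts 1 higher of 11. Of 24 Polycomb and chromatin genes 3 rose and 2 fell. The Nodal, BMP and Wnt list had 3 higher and 1 lower of 16, and 12 not called, with a median of 0.44, the highest of the lists, which was 0.47 in clone 4 and 0.03 in clone 8. None of its 3 rises followed the recent addition by the rule. In clone 8 alone 3 members rose and 5 fell.

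Among the largest falls were genes of no common list. Abcc2, an organic-anion efflux pump, stood at 15 and 16.4 CPM in 0h and 33.1 and 27.4 in 4h of clone 4, against 5.96 and 6.63 in 2h and 8.24 and 7.18 in rev. In clone 8 it stood at 4.22 to 5.46 in 0h and 4h against 0.606 to 2.30 in 2h and rev, and the log2 change was -1.67 ± 0.16 (SE, adjusted p = 3.57e-06 by edgeR), with -1.66 and -1.61 in the clones. Phf19, a Polycomb repressive complex 2 partner, ran from 3.83 to 29.4 CPM in 0h and 4h and from 1.82 to 15.3 in 2h and rev, without overlap inside a clone, and changed by -1.10 ± 0.11 (SE, adjusted p = 5.03e-06 by edgeR). Cbx7, a Polycomb chromodomain gene, fell by 0.41. The small nucleolar RNA Snord13, a guide for ribosomal RNA acetylation, fell by 1.43, the phospholipase Pla2g1b by 1.34, Slfn9 by 1.23, the transcription factor Casz1 by 0.85 and the mitochondrial RNA-binding gene Fastkd1 by 0.85. Rasgrp2 (-0.85), Oxnad1 (-0.84), Rinl (-0.82), Pmel (-0.81) and Banp (-0.80) completed the 12 falls. The 12 rises included the kinase Nrk (1.20), Neto2 (1.02), Mobp (1.06), Stard8 (0.92) and the antisense transcript Srrm4os (0.94), whose reads cannot be told from those of Srrm4 without strand.

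The genes that followed the recent addition differed in composition from all tested genes. The median GC content of each gene's longest transcript was 49.68% for all tested genes, 47.03% for the 1048 higher and 51.68% for the 855 lower ones. Exonic lengths had medians of 4375, 5495 and 4419 bases. The count-weighted mean GC content of the libraries was 48.79% in 2h and rev and 48.96% in 0h and 4h (two-sided exact permutation p = 0.0751, 0.263 adjusted over 7 measures). A GC correction left 1968 of the 2261 calls in place, and the part of GC in the rest was not tested.

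The clones gave the contrast in different sizes. Fitted alone, clone 4 called 3808 of 12759 genes (29.8%) and clone 8 called 1894 of 12831 (14.8%). Over the 12217 genes tested in both, 558 were called in the same direction, 323 higher and 235 lower, which is 15.2% of the calls of clone 4 and 31.6% of those of clone 8. Another 247 were called in opposite directions. Across these genes the clones' changes had a Pearson correlation of 0.202 and a Spearman correlation of 0.192, as a description. A test of the difference between the clones called 2339 genes, 18.4%, 980 with a higher and 1359 with a lower change in clone 8.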

How the data were processed

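RNA was measured in 16 libraries, after ribosomal RNA depletion per the labels' protocols. Raw counts of 52636 Ensembl genes, 1 column a library and whole numbers, were deposited by the authors. The submitters' processing notes name bcl2fastq 2.19.1, STAR 2.5.3a and the build mm10, while the counting program, annotation and strand setting are not given in the sources used here. Symbols and coordinates came from GENCODE M21 (GRCm38), with 52489 IDs matched and 147 not, and promoters from RefSeq.

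Genes passing filterByExpr by time group (minimum count 10, minimum total 15) were scaled by TMM and fitted with edgeR 4.0.16 (R 4.3.3) quasi-likelihood, with 4 time groups and clone as terms. Benjamini-Hochberg adjustment ran over all 12742 genes, and calls were at an adjusted p under 0.05. CPM use the TMM-scaled library size. The test was tested on simulated data.

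The members and the 24 gene lists were chosen with earlier results of these data known, and 2 lists, imprinted and basement membrane genes, after their values were seen. Named genes were the 12 largest rises and falls among genes that followed the recent addition, did not overlap within either clone and averaged at least 50 counts on the higher side (predicted genes and ribosomal RNA left out), up to 4 called members per list plus those called alike in both comparisons without a shared library, and Egr1, Spry4, Dusp6 and Fos. Other called list members are named outside this rule, chosen after their values were seen.

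Replicate numbers did not pair the libraries. No pair of replicates agreed within sampling noise, with chi-square values of 1.32 to 4.49 per degree of freedom, and each library counted singly. Alternatives covered scaling, filters, thresholds, DESeq2 1.42.0, a model of the 2 sides, clone, a replicate block, depth, composition, GC content and each library left out. The late contrast (4h and rev against 0h and 2h) served in the rule for following genes and is otherwise given only for the keratin list. Some members of the sterol list are not reported here by name.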

Additional observations from a re-analysis of the deposited data

Results flagged for a closer look

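Of 96 combinations of the 24 genes with the largest rises and falls and the 4 groups, 4 held a library whose gap to the others passed Dixon's 95% critical value. Chance passes about 1 in 20 where all values come from a single normal population. Each group pooled 2 clones, so that rate need not hold here. They were Cdkn1a in 4h, where clone 4 number 1 had 14.93 CPM, Plk2 in 0h, where clone 4 number 1 had 26.17, Rasgrp2 in 2h, where clone 4 number 2 had 8.017, and Oxnad1 in 0h, where clone 4 number 2 had 11.52.

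For 11 of the 24 genes the recent-addition change differed between the clones by edgeR's quasi-likelihood test. The rise was smaller in clone 8 for Igf2 (-0.943678, clone 8 minus clone 4 on the log2 scale), Cdkn1c (-1.06856), Krt18 (-1.21369), Mobp (-1.48086) and Cdkn1a (-0.74487), and larger for H19 (0.962236). The clone differences of the neighbours Igf2 and H19 thus had opposite signs. The fall was larger in clone 8 for Snord13 (-1.26044) and Slfn9 (-0.771866), and smaller for Pla2g1b (1.36538), Fastkd1 (0.61486) and Oxnad1 (0.536182).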

How the results depend on the processing

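No shared call changed direction under any alternative. The recent-addition count of 2261 became 886 at an adjusted p under 0.01, 196 at an absolute log2 change of at least 1, 471 under library totals, 1368 in the 2-level model, 738 without the clone term, 3808 in clone 4 alone, 1322 with counts thinned to equal totals and 1497 with depth as a term; leaving out 1 library gave 1565 to 2368. The 1903 following genes became, in the same order without the 2-level model and depth, 803, 168, 388, 679, 2855 and 1146. The ERK count of 1055 became 442, 147, 474, 270 without the clone term, 1783 in clone 4, 681 thinned and 682 without the 2 libraries that had the fewest counts outside the abundant RNAs, an alternative chosen after seeing the data. For rev and 2h the 227 became 71, 60, 483 with no filter, 41 without the clone term, 422 in clone 4, 448 in clone 8, 126 thinned, 117 with the GC correction, 137 without the 2 libraries and 80 to 312 with 1 library left out. For 4h and 0h the 1645 became 694, 421, 508 under library totals, 546 without the clone term, 806 in clone 8 and 964 to 1840 with 1 left out. The 219 genes called alike became 65, 39, 31 under library totals, 31 without the clone term, 732 in clone 4, 118 thinned, 135 without the 2 libraries and 108 to 225 with 1 left out. The correlation of 0.0145 became -0.0724 at a minimum count of 30, 0.198 in clone 8 and -0.0157 to 0.0837 with 1 left out. The clone difference of 2339 became 489 under library totals and 1254 thinned.

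For lists, the p53 count of 11 became 1 at the fold threshold and 7 under library totals. The histone count of 18 became 5 at the stricter p, 0 at the fold threshold, 1 under library totals, 28 with no filter, 6 without the clone term, 40 in clone 4 and 5 in clone 8. The SRF and YAP count of 9 became 4 at the fold threshold. The keratin count of 7 became 1 without the clone term, 4 at the stricter p, in the 2-level model, in the replicate block, in clone 8, thinned, with depth and without the 2 libraries, and 4 to 7 with 1 left out. The ATF4 count of 18 became 10 at the stricter p, 3 at the fold threshold, 8 under library totals and 10 without the clone term. Medians moved in clone 4 to 0.213 (sterol), -0.0806 (heat shock), 0.0794 (NRF2), 0.251 (aryl hydrocarbon), 0.411 (SRF and YAP), 0.601 (histones), 0.314 (imprinted), 0.155 (basement membrane) and -0.0235 (ERK). In clone 8 they moved to 0.162 (ERK), 0.0305 (fatty acid), 0.0215 (heat shock) and 0.0294 (Nodal, BMP and Wnt). Under library totals they moved to -0.0843 (fatty acid), -0.0875 (heat shock), -0.0212 (NRF2), -0.0078 (G2/M), 0.0121 (splicing) and -0.0363 (basement membrane). The ERK median of 0.07 became 0.16 at a minimum count of 30, -0.116 in the 2-level model and -0.0369 to 0.159 with 1 left out; the clock median became 0.131 at that minimum and 0.163 thinned, the aryl hydrocarbon median 0.135 thinned, the heat-shock median -0.0193 without the 2 libraries and the basement membrane median -0.00133 to 0.0939 with 1 left out.

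Of 3825 comparisons of 120 named genes with the settings other than thresholds, 3421 kept direction and call, 395 kept the direction and lost the call (58 of them under library totals), 6 gained it and 3 reversed. Egr3 reversed in the 2-level model (-0.113), and Ccnd1 (0.0552) and Smad7 (-0.0162) in clone 8. The causes were not tested. The replicate block shared 1803 of the 2261 calls and gave 1815 in all. The numbers did not pair the libraries (mean correlation of deviations -0.162 for the same number and -0.147 for the other). Depth limits genes at few counts, such as Krt7 at 0 to 1.36 CPM in 0h and 4h. Only whole groups make up each side, so no setting separates the compound, the time and the collection.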
